A study of Mus musculus with 16 samples.

Results

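The B cell and immunoglobulin genes described here are 10 genes chosen by symbol from the 55146 gene rows of a tumour RNA-seq series. They are 6 heavy chain constant genes (Ighm, Ighg3, Ighg1, Ighg2b, Ighg2c and Igha), the kappa light chain constant gene Igkc, the joining chain gene Jchain, and the B cell surface genes Cd79a and Ms4a1. All 10 were found, each with 1 row. RNA was measured in 16 mouse breast tumours, 4 in each of 4 groups. Every tumour came from MMTV-PyMT mice, in which the mouse mammary tumour virus promoter drives the polyoma middle T antigen in mammary epithelium, and tumours of donors aged 12 weeks were re-implanted in a mammary fat pad of FVB mice. The hosts then received, over 28 days, anti-PD-L1 (5 mg/kg, 2 times a week) together under sonidegib (20 mg/kg each day), anti-PD-L1 alone, sonidegib alone, or vehicle. Anti-PD-L1 is an antibody against a ligand that restrains T cells, and sonidegib blocks Smoothened, through which Hedgehog signals enter the cell. The labels name no donor, litter or batch, and the p-values reflect only how far these libraries differ among themselves, which may in part be technical.

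An antibody is built of heavy chains and light chains made by B cells. A naive B cell makes the mu heavy chain, and class switching joins the same variable region to a gamma, epsilon or alpha constant gene that lies further along the heavy chain locus. Plasma cells are B cells that have turned to secretion: they hold very large amounts of immunoglobulin and joining chain RNA, while genes of the B cell surface such as Ms4a1, which encodes CD20, are switched down. IgA, the alpha class, is the main antibody of mucosal surfaces and of milk, and in the mouse most light chains are kappa.

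The 6 heavy chain constant genes lie side by side on the minus strand of chromosome 12 (GRCm38), from Ighm (113418558 to 113422730) through Ighg3 (113356224 to 113361232), Ighg1 (113325240 to 113330523), Ighg2b (113302965 to 113307933) and Ighg2c (113285325 to 113288932) to Igha (113254830 to 113260236). The first 60 bases of each constant region transcript are shown because short fragments must be told apart on such letters. In the 4 gamma genes the capitals mark the bases that differ from Ighg1, and Ighm and Igha, which share less sequence, carry no capitals. The sequences come from the GENCODE M21 transcripts and are written 5′ to 3′ along the transcript.
Ighm: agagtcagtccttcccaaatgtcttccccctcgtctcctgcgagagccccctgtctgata
Ighg3: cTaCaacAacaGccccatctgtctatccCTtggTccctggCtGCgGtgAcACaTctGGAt
Ighg1: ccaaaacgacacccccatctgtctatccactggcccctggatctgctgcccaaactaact
Ighg2b: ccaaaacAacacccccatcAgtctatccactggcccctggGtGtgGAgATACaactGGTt
Ighg2c: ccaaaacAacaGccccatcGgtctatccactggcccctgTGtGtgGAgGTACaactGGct
Igha: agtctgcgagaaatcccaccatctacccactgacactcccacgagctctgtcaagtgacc
Against Ighg1, these 60 bases differ at 18 positions in Ighg3, 13 in Ighg2b and 14 in Ighg2c. Over the whole transcripts the gamma genes were 68.6% to 76.5% identical, with shared runs of up to 78 bases between Ighg2b and Ighg2c and of 28 to 41 bases between the other gamma pairs. Mu and alpha were 46.8% to 53.5% identical to each other and to the gamma genes, with shared runs of 10 to 15 bases. How the deposited values divide fragments between Ighg2b and Ighg2c is therefore less certain than the mu, alpha and kappa values.

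The other members lie apart. Igkc occupies 70726435 to 70726966 on chromosome 6 (plus strand), Jchain 88519809 to 88527891 on chromosome 5 (minus strand), Cd79a 24897381 to 24902197 on chromosome 7 (plus strand) and Ms4a1 11249675 to 11266241 on chromosome 19 (minus strand). Igkc overlaps the noncoding gene Gm30211 on the same strand, which was at 0.0202 FPKM at most. Ms4a1 overlaps the antisense gene 4930526L06Rik, at 0.0591 FPKM at most, which is close to the level of Ms4a1 itself.

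The authors deposited FPKM, that is fragments scaled by transcript length and by the mapped fragments of the library. The depth, estimated from the smallest steps between values, came to 34.3 to 56.9 M fragments in a library. Vehicle replicate 3 stood apart, with 11361 genes at 1 FPKM or more against 13107 to 14784 in the other libraries and a median log2 deviation from the gene medians of -0.764 against -0.129 to 0.149. Combination replicate 1 stood apart in another way: its 6 adipocyte markers summed to 142 FPKM, against 19.2 FPKM at most in every other library, and its 12 T cell markers summed to 4.09 FPKM, the lowest of its group. The slope of each library's log2 deviation on GC content, in log2 units per percentage point of GC, was -0.0324, -0.0281 and -0.0387 in combination replicates 2 to 4 and 0.0455, 0.0332 and 0.0369 in vehicle replicates 1 to 3, against -0.0210 to 0.0272 in the other 10 libraries. The summed level of mitochondrial genes was 44952 FPKM in combination replicate 2, 40978 FPKM in combination replicate 4 and at most 33433 FPKM elsewhere. Combination replicates 2 to 4 are also the tumours with the highest Jchain, Iglc2 and Iglc3 below. Values with the GC trend removed stand beside some results, among them Ighm and Igkc between combination and vehicle. They are not given for the members under the filter, and the part of the mitochondrial level was not tested. Epithelial markers such as Krt8 and Epcam were present in every library, with a list sum of 866 to 1663 FPKM in the combination group and 496 to 2010 FPKM in the vehicle group.

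Immunoglobulin RNA was present but sparse. Ighm was at 1.05 to 5.13 FPKM over the 16 libraries, Igha at 0.394 to 21.0, Igkc at 0.519 to 21.0 and Jchain at 0.101 to 8.28. By the depth estimate, a median library held about 146 fragments of Ighm, 86 of Igha, 35 of Igkc and 30 of Jchain. The gamma genes were lower still: Ighg1 reached 1.46 FPKM and Ighg2b 1.13, while Ighg2c and Ighg3 stayed at or below 0.102 FPKM. Ighg3 was listed at 0 in 10 of 16 libraries. The B cell surface genes were near the limit of detection, with Cd79a, the signalling chain of the B cell receptor, at 0.0921 FPKM at most and Ms4a1 at 0.0881 at most, about 5 and 11 fragments. In bulk tissue, fewer cells of a type and less RNA per cell cannot be told apart.

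**Figure D1:**
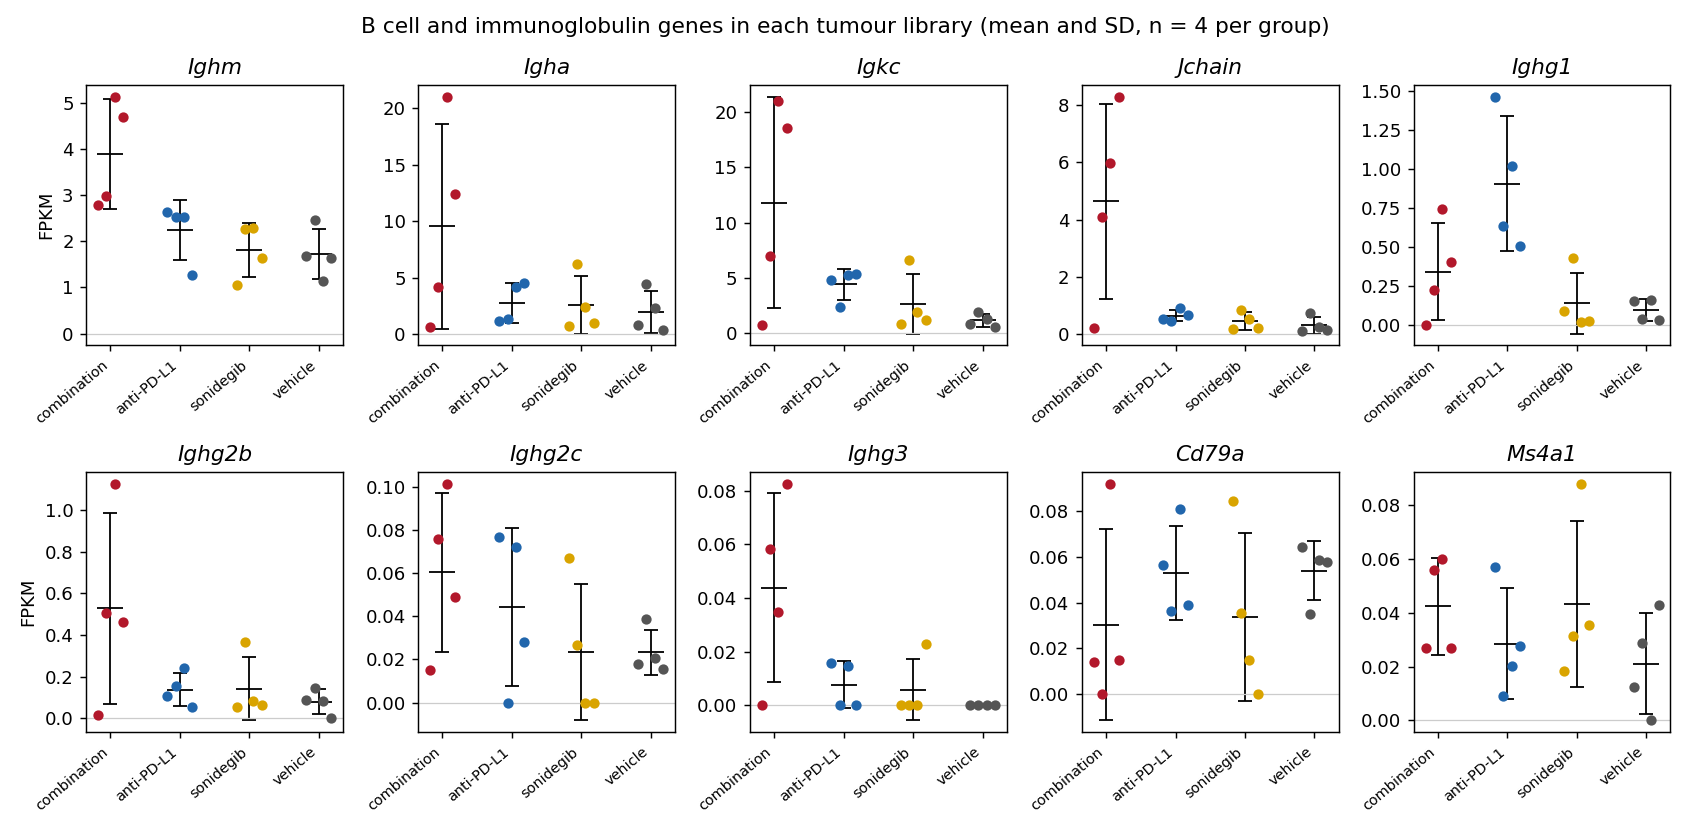
FPKM (linear axis, separate for each gene) of the 10 genes in each tumour, by group; points are libraries, the wide bar the mean and the whiskers the SD (n = 4). Ighm in the 4 combination tumours, at 2.78 to 5.13 FPKM, lies above every tumour of the other groups, while for Igha, Igkc and Jchain 1 combination tumour sits with the vehicle tumours.

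Ighm, the mu heavy chain of IgM, was highest in tumours given both drugs. It was at 2.78, 2.99, 5.13 and 4.69 FPKM in the combination tumours. The anti-PD-L1 tumours had 2.64, 2.52, 2.53 and 1.28 FPKM, the sonidegib tumours 1.05, 2.26, 2.29 and 1.64, and the vehicle tumours 1.67, 2.46, 1.14 and 1.63. Each combination tumour thus exceeded all 12 others, and the other 3 groups overlapped one another. The group means were 3.90 ± 1.19 FPKM under the combination, 2.24 ± 0.646 under anti-PD-L1, 1.81 ± 0.591 under sonidegib and 1.73 ± 0.547 under vehicle (SD, n = 4 each).

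Limma was run on log2(FPKM + 1) over the 15105 genes that reached 1 FPKM in at least 4 libraries, with Benjamini-Hochberg adjustment in each comparison and a threshold of 0.05. Between combination and vehicle, Ighm rose by 0.83 on this scale (SE 0.23, 95% interval 0.34 to 1.32, adjusted p = 0.0377), a ratio of means of 2.26. It was 1 call among the 3 members tested, against 11.3% of all genes tested in this comparison, where the median gene was 0.26 higher and 1559 genes were called higher and 144 lower. That split was 1471 and 1129 after median-of-ratios scaling and 1326 and 1308 after quantile normalization, with median changes of 0.01 and -0.03. Higher values without overlap between these groups, as in Ighm, occurred in 3.12% of tested genes. The call of Ighm was lost after median-of-ratios scaling (0.60, adjusted p = 0.0545) and quantile normalization (0.54, adjusted p = 0.0780), and with the GC trend removed (0.72, adjusted p = 0.0622). It was also lost without vehicle replicates 1, 2 or 3 (adjusted p = 0.0647, 0.0802 and 0.115) and without combination replicates 2, 3 or 4 (0.139, 0.0874 and 0.145), with log2 changes of 0.72 to 0.96 throughout. Ighm did not pass against anti-PD-L1 (0.59, 95% interval 0.10 to 1.08, adjusted p = 0.813) or against sonidegib (0.80, 0.31 to 1.29, adjusted p = 0.959). In these 2 comparisons limma called 0.00662% and 0.0% of the genes, and higher values without overlap occurred in 1.36% and 0.483% of them.

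Igkc, the constant region of the kappa light chain, had the widest range of group means among the tested members. It was at 0.739, 6.96, 21.0 and 18.6 FPKM in the combination tumours and at 4.76, 2.33, 5.20 and 5.35 FPKM in the anti-PD-L1 tumours. The sonidegib tumours had 0.840, 6.60, 1.88 and 1.15 FPKM and the vehicle tumours 0.836, 1.92, 1.28 and 0.519. Of the 4 combination tumours, 3 exceeded every vehicle tumour, and replicate 1 lay inside the vehicle range. All 4 anti-PD-L1 tumours exceeded all 4 vehicle tumours, as did 3.39% of tested genes. The means were 11.8 ± 9.59 FPKM under the combination, 4.41 ± 1.41 under anti-PD-L1, 2.62 ± 2.69 under sonidegib and 1.14 ± 0.606 under vehicle.

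None of the Igkc differences passed the threshold. Against vehicle the log2 difference was 2.08 for the combination (SE 0.66, 95% interval 0.66 to 3.51, adjusted p = 0.0549), 1.34 for anti-PD-L1 (-0.09 to 2.76, adjusted p = 0.224) and 0.56 for sonidegib (-0.87 to 1.98, adjusted p = 0.584), by limma. Limma called 0.0% of all genes for anti-PD-L1 against vehicle and 0.0% for sonidegib against vehicle, with 3712 and 4131 genes whose p was below 0.05 before adjustment. These shares became 26.0% and 26.3% when vehicle replicate 4 was left out. With all libraries the median gene was 0.30 higher under anti-PD-L1 and 0.33 higher under sonidegib than under vehicle. With the GC trend removed the combination difference was 1.80 (adjusted p = 0.1001). It passed without combination replicate 1 (2.86, adjusted p = 0.000784) and without sonidegib replicate 2 (2.08, adjusted p = 0.0476), and it ranged from 1.64 to 2.86 when each library was left out in turn. The combination exceeded sonidegib by 1.53 (0.10 to 2.95, adjusted p = 0.959; without combination replicate 1, 2.30 and adjusted p = 0.0212) and anti-PD-L1 by 0.74 (-0.68 to 2.17, adjusted p = 0.886).

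Igha, the alpha heavy chain of IgA, varied widely within each group, and no difference between groups passed the threshold. It was at 0.659, 4.18, 21.0 and 12.4 FPKM in the combination tumours and at 1.16, 1.40, 4.16 and 4.52 FPKM in the anti-PD-L1 tumours. The sonidegib tumours had 0.729, 6.23, 2.46 and 1.00 FPKM and the vehicle tumours 0.861, 4.49, 2.32 and 0.394. Combination replicates 3 and 4 exceeded every tumour of the other groups, and combination replicate 1 was lower than all anti-PD-L1 and sonidegib tumours and 3 of 4 vehicle tumours. The means were 9.57 ± 9.09, 2.81 ± 1.78, 2.61 ± 2.53 and 2.02 ± 1.84 FPKM for combination, anti-PD-L1, sonidegib and vehicle. Against vehicle the log2 differences were 1.44 for the combination (SE 0.74, adjusted p = 0.189), 0.41 for anti-PD-L1 (adjusted p = 0.750) and 0.22 for sonidegib (adjusted p = 0.863), by limma. The first passed without combination replicate 1 (2.14, adjusted p = 0.0239). With all libraries the median gene was 0.26, 0.30 and 0.33 higher than in vehicle under combination, anti-PD-L1 and sonidegib.

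**Figure D2:**
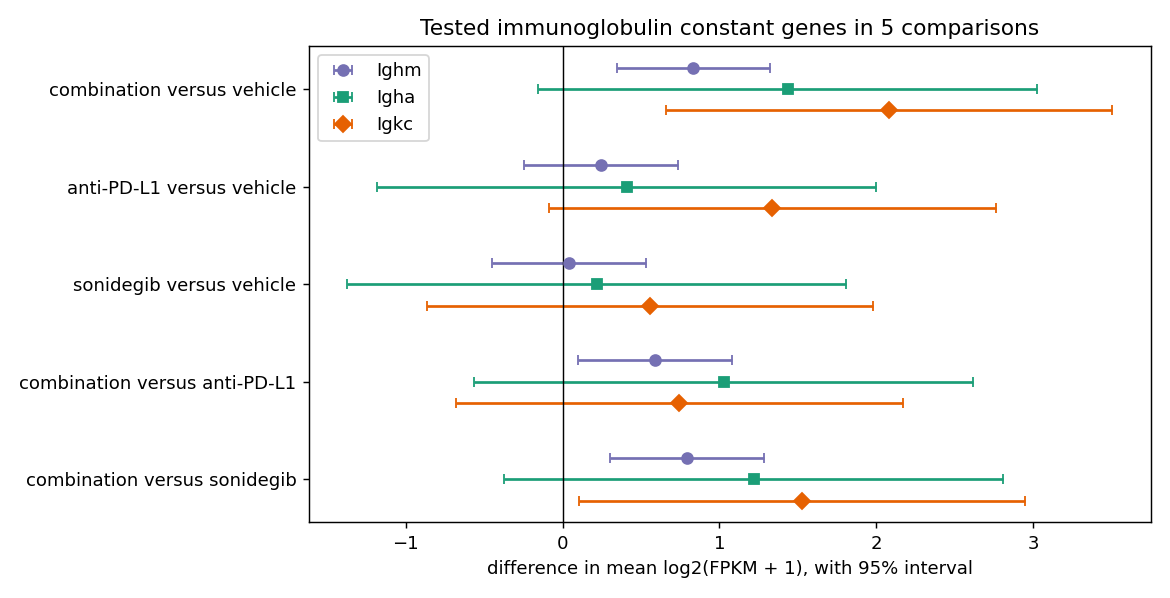
Difference in mean log2(FPKM + 1) with its 95% interval for the 3 tested members (x axis) in 5 comparisons (y axis), the first-named group minus the second. The interval of Ighm between combination and vehicle runs from 0.34 to 1.32, and that of Igkc from 0.66 to 3.51, with adjusted p of 0.0377 and 0.0549.

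The series names the difference across all 4 groups as its primary comparison. Ighm (adjusted p = 0.162), Igkc (adjusted p = 0.191) and Igha (adjusted p = 0.460) did not pass limma's F test in it, which called 0.0199% of all genes. Ighm passed without vehicle replicate 4 or without combination replicate 1 (adjusted p = 0.0480 and 0.0445), and Igkc without combination replicate 1 (0.00581). The F test called 3321 of the 15105 genes without vehicle replicate 4 and 1831 without combination replicate 1, against 3 with all libraries. The interaction term asks whether the combination differs from the sum of the effects of each drug on the log2 scale, and limma called 0.00662% of genes in it. It was 0.55 for Ighm (SE 0.33, adjusted p = 0.492), 0.81 for Igha (SE 1.05, adjusted p = 0.718) and 0.19 for Igkc (SE 0.94, adjusted p = 0.933). Its median over all tested genes was -0.35. The comparisons with vehicle share the vehicle tumours, so their values are given side by side and not as independent results.

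Jchain encodes the joining chain that links IgM and IgA into polymers, and it is a gene of antibody-secreting cells. It did not reach the 1 FPKM filter in enough libraries. Its level was 0.202, 4.08, 5.96 and 8.28 FPKM in the combination tumours. The anti-PD-L1 tumours had 0.517, 0.466, 0.899 and 0.677 FPKM, the sonidegib tumours 0.189, 0.849, 0.532 and 0.196, and the vehicle tumours 0.101, 0.729, 0.249 and 0.141. Combination replicates 2 to 4 exceeded all 12 tumours of the other groups, and replicate 1 lay among the vehicle tumours. The means were 4.63 ± 3.42 FPKM under the combination, 0.640 ± 0.195 under anti-PD-L1, 0.441 ± 0.315 under sonidegib and 0.305 ± 0.289 under vehicle, so the ratio of combination to vehicle was 15.2. An exact two-sided permutation test of the means gave p = 0.0857 against vehicle and against sonidegib (adjusted p = 0.385 for both). With 4 against 4 libraries the smallest possible p is 0.0286. The 7 members under the filter gave 35 such tests over 5 comparisons, adjusted together, of which 1 had p under 0.05 and 0 passed after adjustment. When the filter was a mean of at least 1 FPKM, which Jchain reached through the combination tumours, limma called it higher in the combination than in vehicle tumours (1.80, SE 0.43, adjusted p = 0.0363), as it did 11.2% of genes in either direction. That filter favoured a high combination value, so this call is no independent support. Without any filter the limma difference was also 1.80 (SE 0.46, adjusted p = 0.120).

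Ighg1, the IgG1 heavy chain, was the member with its highest mean under anti-PD-L1 alone. It was at 0, 0.224, 0.743 and 0.403 FPKM in the combination tumours, at 1.46, 0.637, 1.02 and 0.503 in the anti-PD-L1 tumours, at 0.0873, 0.427, 0.0176 and 0.0244 in the sonidegib tumours and at 0.155, 0.0407, 0.158 and 0.0344 in the vehicle tumours. All 4 anti-PD-L1 tumours exceeded all sonidegib and all vehicle tumours and overlapped the combination tumours. The means were 0.342 ± 0.314 FPKM under the combination, 0.905 ± 0.430 under anti-PD-L1, 0.139 ± 0.194 under sonidegib and 0.0969 ± 0.0686 under vehicle. Between anti-PD-L1 and vehicle the ratio of means was 9.33 and the exact permutation p = 0.0286, the smallest possible, with an adjusted p = 0.385. Of the genes under the filter with a value above 0 in at least 8 libraries, 4.65% had all anti-PD-L1 tumours above all vehicle tumours. Among the 7 members under the filter, no other was higher without overlap in any pairwise comparison. Such genes were 4.92% between combination and vehicle, 3.72% between sonidegib and vehicle, 1.71% between combination and anti-PD-L1 and 1.39% between combination and sonidegib. Among tested genes 6.0% were higher without overlap between sonidegib and vehicle, where 0 members were. About 24 to 62 fragments lay behind each anti-PD-L1 value and 1 to 5 behind each vehicle value.

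The other gamma genes had their highest means in the combination tumours. Ighg2b was at 0.0153, 0.506, 1.13 and 0.462 FPKM there, against 0.0542 to 0.240 FPKM under anti-PD-L1, 0.0533 to 0.367 under sonidegib and 0 to 0.148 under vehicle. Its combination replicates 2 to 4 exceeded every other tumour and replicate 1 did not (exact permutation p = 0.114 against vehicle, adjusted p = 0.385). Ighg3 was listed at 0, 0.0582, 0.0347 and 0.0827 FPKM in the combination tumours, at 0.0157 FPKM at most under anti-PD-L1, at 0.0228 at most under sonidegib and at 0 in all 4 vehicle tumours. These values amount to 3 fragments at most in any library. Ighg2c was at 0.0153 to 0.102 FPKM under the combination, 0 to 0.0768 under anti-PD-L1, 0 to 0.0673 under sonidegib and 0.0157 to 0.0387 under vehicle, and the groups overlapped.

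The B cell surface members showed no group apart from the others. Cd79a was at 0.0140, 0, 0.0921 and 0.0147 FPKM in the combination tumours, at 0.0362 to 0.0808 under anti-PD-L1, at 0 to 0.0843 under sonidegib and at 0.0349 to 0.0643 under vehicle. Its mean was 0.0302 ± 0.0418 FPKM under the combination and 0.0539 ± 0.0130 under vehicle (exact permutation p = 0.314, adjusted p = 0.522). Ms4a1 was at 0.0269, 0.0559, 0.0601 and 0.0269 FPKM in the combination tumours and at 0.0122, 0.0289, 0 and 0.0429 in the vehicle tumours (exact permutation p = 0.200, adjusted p = 0.467). Its range was 0.00902 to 0.0571 FPKM under anti-PD-L1 and 0.0184 to 0.0881 under sonidegib. All 4 groups overlapped for both genes, and the values rest on 0 to 11 fragments per library, at which even a large difference could be missed. The ratio of combination to vehicle means was 0.561 for Cd79a and 2.02 for Ms4a1.

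The heavy chain classes were next compared with each other within each library, as shares of the summed FPKM of the 6 heavy chain genes. The sum was 3.47, 8.03, 28.2 and 18.1 FPKM in the combination tumours, against 1.98 to 9.31 FPKM in the 12 others. Igha was the leading class in 9 libraries and Ighm in 7, and each group held both kinds. In the combination tumours Ighm made up 80.1% of the sum in replicate 1, and Igha 52.0%, 74.7% and 68.6% in replicates 2 to 4. The mean Igha share was 53.6% ± 25.0 under the combination, 43.3% ± 22.4 under anti-PD-L1, 47.7% ± 14.4 under sonidegib and 43.7% ± 22.2 under vehicle (SD, n = 4 each), and the differences were smaller than the spread.

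The gamma share was the one in which anti-PD-L1 tumours had the highest mean. The 4 gamma genes made up 18.3% ± 8.84 of the sum under anti-PD-L1 (range 9.18% to 30.4%), against 6.07% ± 4.10 under the combination (0.880% to 10.8%), 6.34% ± 3.97 under sonidegib (2.04% to 10.5%) and 5.49% ± 3.27 under vehicle (2.42% to 9.36%). The lowest anti-PD-L1 tumour lay inside the range of each other group. Within the gamma classes, Ighg1 took 75.7% to 88.1% of the FPKM in the anti-PD-L1 tumours, 0% to 40.4% in the combination tumours, 17.9% to 52.0% in the sonidegib tumours and 17.9% to 68.6% in the vehicle tumours. All 4 anti-PD-L1 tumours thus lay above the 12 others in this share, which was not tested and rests on few fragments outside the anti-PD-L1 group. Ighg2a, not analysed here, is part of neither share. The effect on these shares of strain differences between the tumours and the reference genome was not tested.

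**Figure D3:**
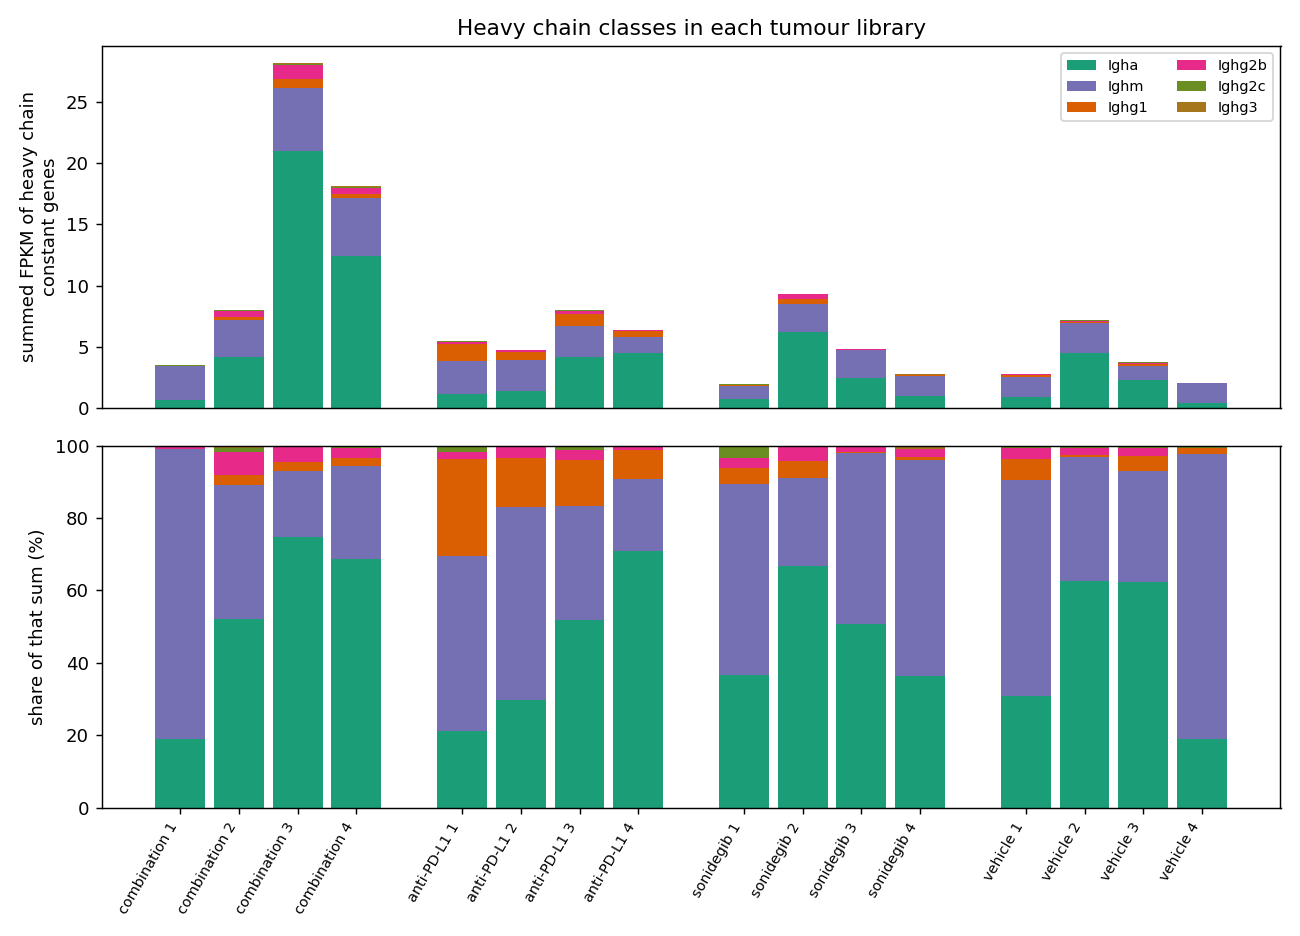
Summed FPKM of the 6 heavy chain constant genes in each library (top, linear axis from 0) and the share of each class in that sum (bottom, percent), with the groups in the order combination, anti-PD-L1, sonidegib and vehicle. Combination replicates 3 and 4 reach 28.2 and 18.1 FPKM, mostly Igha, and Ighg1 is the widest gamma band in every anti-PD-L1 tumour.

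Across the 16 libraries, Igkc, Igha and Jchain were high or low together. On log2(FPKM + 1), Pearson's r with Igkc was 0.906 for Igha (Spearman's rho 0.915), 0.897 for Jchain (0.929) and 0.749 for Ighm (0.576). Permutation p for r was 1e-05, the smallest that 100000 permutations can give, for Igha and Jchain (adjusted p = 1.33e-05 over the 4 relations computed) and 0.00071 for Ighm (adjusted p = 0.00071). For rho the permutation p was 2e-05 for Igha and Jchain (adjusted p = 2.67e-05) and 0.0213 for Ighm (adjusted p = 0.0213). Without combination replicates 3 and 4, the libraries farthest from the median of Igkc, r was 0.792 for Igha, 0.759 for Jchain and 0.432 for Ighm, so the relation of Ighm rests in large part on those tumours. After subtracting each group's mean, r was 0.928, 0.923 and 0.571. The points share depth and tissue make-up, and the 4 groups are pooled in them.

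**Figure D4:**
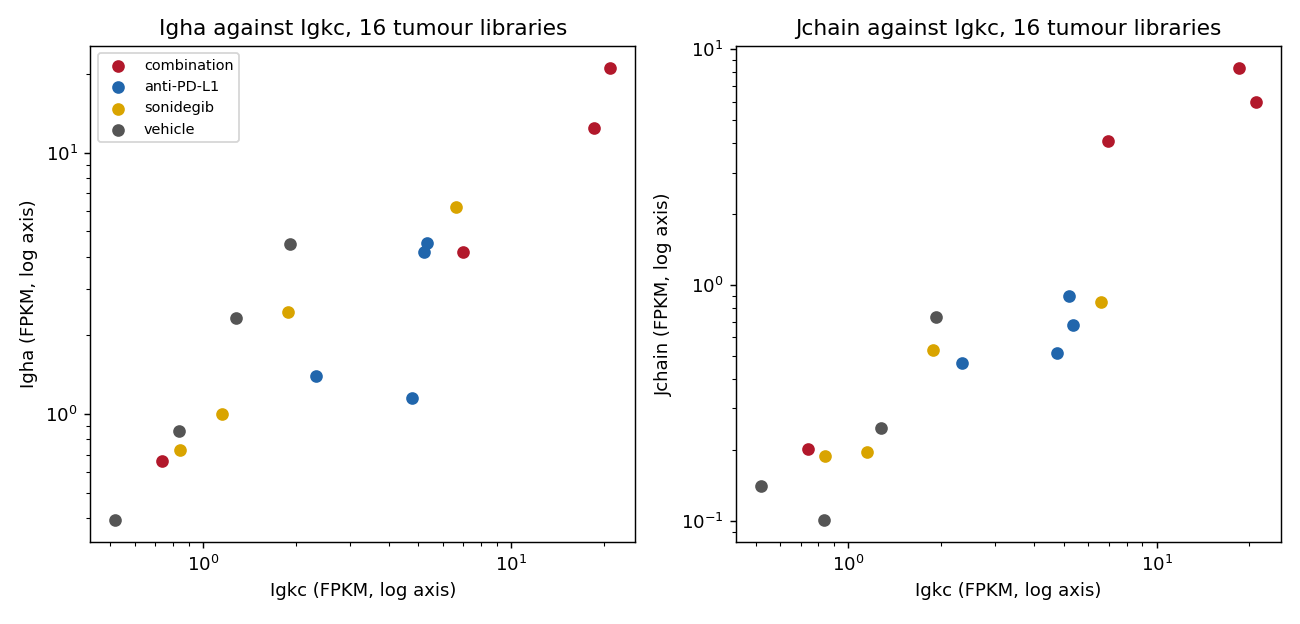
Igha (left) and Jchain (right) against Igkc in the 16 tumours, in FPKM with log axes on both sides and points coloured by group. Combination replicates 2 to 4 lie at the upper right, from 6.96 to 21.0 FPKM of Igkc, and combination replicate 1 lies among the vehicle tumours at 0.739 FPKM.

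Variable region genes, which encode the antigen-binding part of both chains, gave a readout of the same RNA that the 10 members do not use. Of 344 such rows (181 Ighv, 160 Igkv and 3 Iglv), 167 were above 0 in at least 1 library and 2 passed the filter. Their summed FPKM was 35.3 ± 26.4 under the combination (range 4.18 to 65.8), 15.5 ± 1.40 under anti-PD-L1 (14.7 to 17.6), 10.7 ± 10.8 under sonidegib (3.41 to 26.7) and 10.3 ± 7.11 under vehicle (3.53 to 19.7). The number of variable genes above 0 in a library was 18 to 116 under the combination, 44 to 73 under anti-PD-L1, 14 to 88 under sonidegib and 13 to 68 under vehicle. The ranges overlapped between all groups in both measures. The sum followed Igkc across the libraries (r = 0.931, rho 0.938, permutation p = 1e-05 for each, adjusted p = 1.33e-05 for r and 2.67e-05 for rho). Without combination replicates 3 and 4, r was 0.876. Kappa variable regions and Igkc lie on the same RNA, and Igkv genes made up 23.6 of the 35.3 FPKM under the combination. A close relation was thus largely fixed in advance, and its p-values are no independent support.

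Other constant genes were scarce. Of 7 listed, 6 had a row and 0 passed the filter, and Ighg2a was not analysed here. Their summed FPKM was 0.166 to 5.33 under the combination, 0.204 to 0.382 under anti-PD-L1, 0.131 to 0.256 under sonidegib and 0 to 0.101 under vehicle. The lambda light chain gene Iglc2 was at 0, 0.286, 3.99 and 1.32 FPKM in the combination tumours, against 0.173 FPKM at most in the other 12. Iglc3 was at 0, 0.988, 0.922 and 0.563 FPKM in the combination tumours and at 0.122 at most elsewhere. For both genes combination replicate 1 was listed at 0 while replicates 2 to 4 exceeded every other tumour.

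By a rule of likeness, the 5 genes outside the lists with the highest Spearman's rho with Igkc over the 16 libraries, among 11964 ranked, were Ms4a4c (0.879), a membrane protein gene of the family of Ms4a1, Klra2 (0.847), a Ly49 receptor gene, and the MHC class I genes H2-Q6 (0.844), H2-Q7 (0.841) and H2-T22 (0.824). Ms4a4c was at 2.67 ± 2.54 FPKM under the combination, 1.17 ± 0.353 under anti-PD-L1, 1.01 ± 0.261 under sonidegib and 0.810 ± 0.404 under vehicle. The H2-Q genes are near-identical copies whose fragments may be divided between them.

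Other B cell genes were mostly at low levels. Of 24 listed, 8 passed the filter and 3 stayed under 0.1 FPKM in every library. Pax5, the factor that fixes B cell identity, was at 0.0528 FPKM at most. Cd37, a tetraspanin also found on other leukocytes, rose with the combination against vehicle (0.56 on the log2 scale, SE 0.17, limma adjusted p = 0.0433) and was 1 call of 8, against 11.3% of all genes. Of 14 plasma cell genes 8 were tested and 1 rose, Eaf2, an elongation factor partner (0.75, SE 0.18, adjusted p = 0.0342). Eaf2 reached 1 FPKM in just 4 libraries, combination replicates 2 to 4 and sonidegib replicate 1. The plasma cell list had a median change of 0.28, against 0.26 over all genes, and its tested members Xbp1, Sdc1 and Prdm1 are also used by epithelium. Mzb1, a chaperone of antibody secretion under the filter, was at 0, 0.0656, 0.270 and 0.365 FPKM in the combination tumours and at 0.174 FPKM at most in the others. The tested plasma cell genes went both ways. Mean FPKM under combination and vehicle was 4.89 and 8.12 for Derl3 and 26.3 and 35.2 for Sdc1. It was 440 and 312 for Xbp1, 21.6 and 15.9 for Fkbp11 and 1.00 and 0.949 for Prdm1. Of 7 germinal centre genes 3 were tested and 0 passed, with the lowest p for Mybl1 (0.47, adjusted p = 0.139) and S1pr2 (-0.40, adjusted p = 0.227).

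Of 13 genes that attract or sustain B cells, 5 were tested and 1 was called between combination and vehicle, against 11.3% of all genes. This was Ltb, which encodes lymphotoxin beta (0.87 higher, SE 0.27, adjusted p = 0.0485 by limma). It was at 0.667, 2.91, 3.08 and 3.44 FPKM in the combination tumours and at 0.885, 1.00, 0.733 and 0.641 in the vehicle tumours, so replicate 1 of the combination lay inside the vehicle range. Cd37, Eaf2 and Ltb each lost their call in some settings: with the GC trend removed, and without vehicle replicates 1, 2 or 3 or combination replicates 2, 3 or 4, these 3 lists held 0 calls. After quantile normalization or median-of-ratios scaling Cd37 and Ltb were not called, and the plasma cell list held 1 higher and 1 lower call. Ltb was not called with a pseudocount of 0.1, a mean filter or no robust variance either, and Cd37 not with the replicate block. Eaf2 did not reach the mean filter and so was not tested in that setting. With no filter and with only the 2 groups compared all 3 lists held 0 calls. Cd37 and Ltb also lost theirs without any 1 of the anti-PD-L1 libraries and without sonidegib replicates 3 or 4, and Ltb without sonidegib replicate 2. Cxcl13, a chemokine that draws B cells, stayed under the filter and is named after its values were seen. It was at 0.336, 0.949, 0.662 and 1.12 FPKM in the combination tumours, at 0.0985 to 0.203 under anti-PD-L1, at 0 to 0.562 under sonidegib and at 0 to 0.0544 under vehicle. All 4 combination tumours exceeded all vehicle tumours, as 4.92% of genes under the filter with a value above 0 in at least 8 libraries did.

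Several genes that bind or carry immunoglobulin rose. Of 9 listed 8 were tested, and between combination and vehicle the list median was 1.01 against 0.26 over all genes. In this comparison limma called 11.3% of all genes, and 5 of the 8 rose. They were the IgG receptor genes Fcgr4 (1.17, SE 0.27), Fcgr3 (1.14, SE 0.28) and Fcgr2b (0.97, SE 0.29), the signalling chain of Fcgr4 and Fcgr3, Fcer1g (1.00, SE 0.28), and Trim21, a cytosolic antibody receptor (1.02, SE 0.31), with adjusted p of 0.0342 to 0.0449 by limma. The count was 3 after median-of-ratios scaling and 0 with the GC trend removed, with no filter and with only the 2 groups compared, and it was 0 without vehicle replicates 1, 2 or 3 or combination replicates 2 or 4, 2 without combination replicate 3, 3 without any 1 anti-PD-L1 library or sonidegib replicates 3 or 4, and 7 without combination replicate 1. Pigr, the epithelial receptor that carries polymeric IgA and IgM, was at 8.22, 61.0, 49.9 and 53.4 FPKM in the combination tumours and at 13.4, 18.2, 18.7 and 5.13 in the vehicle tumours (1.39, SE 0.68, adjusted p = 0.164). Its range was 10.5 to 39.6 FPKM under anti-PD-L1 and 8.15 to 62.9 under sonidegib. In the other pairwise comparisons 0 genes of any of these lists passed.

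Some markers of other cells were also called higher in the combination than in the vehicle tumours. Of 12 T cell markers 5 were tested and 4 rose with the combination against vehicle, among them Cd3g (1.74, adjusted p = 0.0278 by limma), against 11.3% of all genes, and the list summed to 4.09 to 31.5 FPKM (median 26.7) under the combination and 2.67 to 5.76 (median 3.85) under vehicle. Of 10 macrophage and monocyte markers, the cells that carry most Fc receptors, 3 rose (Ccr2, Mrc1 and Lyz2), with sums of 269 to 459 and 168 to 263 FPKM. Of 8 fibroblast markers 3 rose, and of 2 tested adipocyte markers 1 did, while 0 passed of 8 epithelial, 3 plasmacytoid dendritic and 4 haemoglobin genes. The count of T cell markers called was 0 with the GC trend removed, with no filter and with only the 2 groups compared, where macrophage counts were 2, 0 and 1 and fibroblast counts 2, 0 and 2. Without vehicle replicates 1, 2 or 3 or combination replicates 2 or 4 the T cell, macrophage, fibroblast and adipocyte lists held 0 calls, and without combination replicate 3 they held 1, 3, 2 and 1. Macrophage calls were 5 without combination replicate 1. After quantile normalization or median-of-ratios scaling 2 epithelial markers were called lower. The lymph node list, which would mark a piece of node in the sample, had 0 of 10 genes tested. Ccl21a, Cr2, Madcam1 and Chst4 stayed under 0.1 FPKM in every library. The list sum was 1.39 to 2.87 FPKM under the combination, 0.863 to 1.16 under anti-PD-L1, 0.606 to 1.45 under sonidegib and 0.316 to 0.835 under vehicle. All combination tumours thus exceeded all anti-PD-L1 and vehicle tumours in this sum. Cxcl13, described above, is also on this list, and whether node tissue was present was not tested. The part of these cells in the immunoglobulin values was not tested.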

How the data were processed

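The deposited values are FPKM, 1 column per library, made by the authors with TopHat and Cufflinks and with the builds GRCm38.p6 and mm10, per the submitters' processing notes. Which versions and which annotation they used is not given in the sources used here. The labels' protocol describes stranded libraries depleted of ribosomal RNA, while the molecule label names polyA RNA, and this was not resolved. The reference genome is of the C57BL/6J strain and the hosts were FVB; the effect of allele differences on the values was not tested. FPKM are not counts, so limma 3.58.1 (R 4.3.3) was fitted to log2(FPKM + 1) with 1 mean per group over all 16 libraries, with intensity trend and robust variance. This scale understates changes of genes near 1 FPKM. The filter keeps genes that reach 1 FPKM in at least 4 libraries: 3 of the 10 members passed, and a gene that passes through its high group alone had to differ. The 7 other members were tested by exact permutation of library labels, two-sided, on mean FPKM.

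Depth was estimated from the FPKM step of 1 fragment in 4959 genes with 1 transcript over 2000 bp, after subtracting 200 bp for the fragment. Whole counts were not recovered, so the fragment numbers are approximate and no interval is given. Library order follows the groups in the sample names, so library order and treatment cannot be told apart. Coordinates and transcripts are those of GENCODE M21 (GRCm38), in which all 10 identifiers matched with their version. The fits were tested on simulated data. The 10 members are described whatever their test, and list genes were named when past the threshold with the largest change, at most 4 a list, or else by the 2 lowest p. Other list genes named (Pax5, Mzb1, Derl3, Fkbp11, Xbp1, Sdc1, Prdm1, Pigr, Fcgr2b, Cxcl13, Iglc2, Iglc3, Ccl21a, Cr2, Madcam1 and Chst4) were chosen after their values were seen. Krt8 and Epcam were also named outside this rule. The members and lists were chosen with earlier results of these data known. Alternatives were quantile normalization, median-of-ratios scaling, a pseudocount of 0.1, no filter, a mean of at least 1 FPKM, no robust variance, the GC trend removed, a replicate block, only the 2 groups compared, and each library left out.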

Additional observations from a re-analysis of the deposited data

Results flagged for a closer look

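Of 39 gene and group combinations with differing values, 5 held a library far from the other 3 of its group. The rule was a gap to the nearest value, over the range, above Dixon's 95% critical value. It flags about 1 in 20 among independent normal values, which FPKM of few fragments are not, so the 5 cannot be set against that rate. Ighm was at 1.28 FPKM in anti-PD-L1 replicate 4, against 2.52 to 2.64 in the other 3 tumours of that group. Ighg1, at 0.427 FPKM, and Ighg2b, at 0.367 FPKM, were both far above their group in sonidegib replicate 2, the tumour with the highest Igha (6.23 FPKM) and Igkc (6.60 FPKM) of its group. Ighg3 was at 0.0228 FPKM in sonidegib replicate 4, which is about 1 fragment, and listed at 0 in the other 3, so a flag was certain there. Cd79a was at 0.0921 FPKM in combination replicate 3, about 5 fragments, against 0.0147 at most in the other 3.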

How the results depend on the processing

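Among recomputed counts and shares for the comparisons, 236 stayed within 1.5 times or 1 SD of the reported value and 21 moved. Between combination and vehicle, 1 member passed as reported. With quantile normalization, median-of-ratios scaling, no filter, the GC trend removed and only the 2 groups compared, 0 passed, and 2 passed without robust variance. With a mean of at least 1 FPKM 2 passed (Ighm and Jchain). Jchain reached that filter only through the combination tumours, so its call there is no independent support. When each library was left out, 0 to 3 passed (0 without vehicle replicates 1, 2 or 3 or combination replicates 2, 3 or 4, 2 without sonidegib replicate 2, 3 without combination replicate 1). Without vehicle replicate 3 and combination replicate 1 together, chosen after seeing the data, 3 passed, 1 passed between combination and sonidegib, and 1 across the 4 groups. Leaving out each library gave 0 to 1 between combination and sonidegib and 0 to 2 across the 4 groups, with 0 as reported. All genes called between combination and vehicle ranged from 3 to 4947 (0.0199% to 32.8%) over these omissions, those between anti-PD-L1 and vehicle from 0 to 3927 and between sonidegib and vehicle from 0 to 3974, with 0 as reported for both. Calls between combination and vehicle were 8 without a filter and 551 with the GC trend removed.

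Among recomputed values of single members, 791 kept direction and side of the threshold, 12 came to pass, 11 ceased to pass and 41 changed sign, each of these 41 in a difference that did not pass. Ighm between anti-PD-L1 and vehicle was -0.0672 with quantile normalization and -0.0370 with median-of-ratios scaling. Between sonidegib and vehicle, Ighm was -0.28, -0.23 and -0.22 and Igha -0.17, -0.10 and -0.0379 with quantile normalization, median-of-ratios scaling and the GC trend removed. With each library left out that difference was -0.0704 to 0.183 for Ighm (-0.0704 without the 2 libraries above) and -0.20 to 0.57 for Igha. The interaction of Igkc was -0.13 with a pseudocount of 0.1 and -0.25 to 0.97 with each library left out. On mean log2(FPKM + 0.1), Ighg2c between sonidegib and vehicle was -0.0272 and Ms4a1 between combination and sonidegib 0.00552. With each library left out, differences of mean FPKM between sonidegib and vehicle were -0.0538 to 0.0826 for Ighg1, -0.0139 to 0.0907 for Ighg2b and -0.0144 to 0.00805 for Ighg2c. Between anti-PD-L1 and vehicle they were -0.0100 to 0.00487 for Cd79a and -0.00203 to 0.0148 for Ms4a1, and between combination and sonidegib -0.0240 to 0.0135 for Cd79a and -0.00914 to 0.0141 for Ms4a1. The cause was not tested.

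The replicate numbers showed no sign of pairing the tumours. Deviations of same-numbered libraries correlated at -0.434 to 0.343 (median -0.0454, 4 of 24 over 0.1). Those of libraries with different numbers correlated at -0.457 to 0.475 (median 0.0302, 26 of 72 over 0.1). Such correlations cannot exclude a pairing, and the labels name none. With the number as a replicate block, 1 member passed between combination and vehicle (Ighm, 0.83, adjusted p = 0.0489) and 0 in every other comparison, and all calls between these groups were 1177 in place of 1703. With 4 against 3 libraries the smallest permutation p is 0.0571, so omissions say little of the members under the filter. Without a filter, the limma fit gave Ighg1 0.77 (SE 0.18, adjusted p = 0.367) between anti-PD-L1 and vehicle.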

Other observations

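Most variable region RNA was spread over many genes, with 1 exception chosen after its values were seen. Igkv14-111, a kappa variable gene, was the most abundant variable gene in 13 of 16 libraries. It was at 3.50 ± 2.04 FPKM under the combination, 3.02 ± 2.25 under anti-PD-L1, 2.81 ± 1.08 under sonidegib and 2.40 ± 1.06 under vehicle (SD, n = 4 each), and these means differed by less than the spread between tumours. The other variable genes summed to 31.8 ± 26.0 FPKM under the combination, 12.5 ± 3.18 under anti-PD-L1, 7.92 ± 9.78 under sonidegib and 7.94 ± 6.66 under vehicle. Where it was the top gene it held 6.26% to 60.1% of all variable region FPKM. The highest shares were 60.1% in sonidegib replicate 1, where it was at 2.05 FPKM and Igkc at 0.840, and 51.7% in vehicle replicate 1, where it was at 3.27 FPKM and Igkc at 0.836. Whether all of its fragments come from rearranged kappa chains was not tested.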
